A study of Rattus norvegicus and synthetic construct with 4 samples.

Results

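The elements described here are human islet sequences that lie inside windows around genes that name type 2 diabetes association loci. They were chosen by position among the elements of the count table: an element belongs if its midpoint falls in one of 25 windows. The rule uses no activity value, but the table lists only elements with barcodes that had RNA, and 2 elements of the windows that were paired with barcodes are not in it. This gave 7 of the 3378 elements of the count table, in 5 windows, named for CDKAL1, CDC123, ARAP1, PROX1 and C2CD4A. The other 20 windows held no element of the table used here and were not analysed. The CDC123 and C2CD4A windows held 2 elements each. The gene names mark windows, so an element is called by its window without a statement on which gene it regulates, and its place in an exon, intron or promoter was not determined because a human annotation was not used here.

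The study measured elements of 198 bp, picked from human pancreatic islets by CAGE, which locates the 5' ends of capped transcripts and so the sites where transcription starts. In STARR-seq, a reporter assay, a plasmid carries a candidate sequence within its own transcript, so RNA relative to plasmid DNA measures the activity of that sequence. The 3 RNA libraries came from INS1 832/13, a rat insulinoma line that stands in for pancreatic beta cells, taken 24 h after 10 ug of the pooled library had been electroporated for each replicate, and the 1 plasmid DNA library is the input that all of them share. The cells were not treated otherwise, they are a single rat tumour line, and the human sequences stood on plasmids outside their chromosomes.

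Type 2 diabetes loci are stretches of the genome where common variants are associated with the risk of the disease. Most of these variants lie outside coding sequence, and many of the loci affect insulin secretion, so the regulatory sequences that islet cells use there are of interest. CDKAL1 encodes an enzyme that modifies a transfer RNA and so affects the accuracy of proinsulin translation. CDC123 encodes a factor that helps to assemble a translation initiation complex. ARAP1 encodes a regulator of membrane traffic, PROX1 a homeodomain transcription factor of pancreas, liver and lymphatic development, and C2CD4A a nuclear protein of a small family that is induced by inflammatory signals.

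Each plasmid carried a random barcode of 16 bases, and a barcode marks 1 separately made plasmid of its element. The barcodes are the sequences that the counts were read from. The first set below holds the CDKAL1 plasmids that had more than 4 RNA counts in 3 of 3 libraries, because they belong to the 1 called element and recur in every library. The second set holds, for each other element, the plasmid with the most RNA, which for the CDC123 element at the higher coordinate is tied with another at 33 summed RNA counts. Barcodes are numbered within an element from the highest summed RNA count, and are printed in lower case because no part of a random barcode is set apart.
CDKAL1 barcode 1: ttgtattgtgttgagg
CDKAL1 barcode 2: ttactagtttcatatc
CDKAL1 barcode 3: aatgccagttcatgga
CDKAL1 barcode 4: ttatcactatgtggac
CDKAL1 barcode 5: cacgttgttttggcta
CDKAL1 barcode 8: aataaggcgtcctgga
CDKAL1 barcode 9: gaaacgcgcccccgtt
CDKAL1 barcode 10: actgggagtttgacgt
CDC123, lower coordinate, barcode 1: aacccgagttgtgttt
CDC123, higher coordinate, barcode 1: ccctcagggaaaacgg
ARAP1 barcode 1: acgtatttgacggcac
PROX1 barcode 1: aatgagcggttccagt
C2CD4A, lower coordinate, barcode 1: atctccctttctaacg
C2CD4A, higher coordinate, barcode 1: acttagctgaacagac

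The barcodes of 1 element were far apart in sequence. Over all 7 elements, the closest barcodes of an element differed at 7 of their 16 bases, so no counted barcode is a near copy of another barcode of its element.

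The RNA libraries held 211117, 197554 and 218571 counts, and the plasmid DNA library 1079728. The 7 elements together had 85 barcodes. They received 680, 665 and 720 RNA counts in the 3 libraries, over 2549 plasmid DNA counts. The deposited table lists only barcodes with 10 or more plasmid DNA counts and 1 or more RNA counts over the libraries, so plasmids without RNA were not analysed here. Ratios below are normalised RNA over normalised plasmid DNA counts, in multiples of the centre of the library that the TMM normalization sets. A ratio of 1 is therefore the level of a typical element and not that of an empty control, and a ratio below 1 is not repression. The reads have no stated molecular identifiers, and the intervals on counts and shares cover counting error only.

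The CDKAL1 element had the highest RNA/DNA ratio of the group and was called above the centre. It spanned positions 20534642 to 20534839 of chromosome 6 (all positions are in hg19) and gave RNA/DNA ratios of 4.47, 6.28 and 6.17 times the centre in RNA libraries 1, 2 and 3, a mean of 5.64 ± 1.01 (SD, n = 3 RNA libraries over 1 DNA library). The ratios came from 350, 470 and 497 RNA counts over 671 plasmid DNA counts (exact 95% Poisson interval 621 to 724). It was above the centre in 3 of 3 libraries, as were 25.8% of all elements. Its log2 ratio was 2.49 ± 0.34 (SE), and its Benjamini-Hochberg adjusted p was 8.15e-09 (edgeR, quasi-likelihood test over all elements). The 95% interval of its fold over the centre ran from 3.54 to 8.97. With library totals in place of TMM, which lowered the median of all elements by a like amount, its log2 ratio was 1.76 and it was still called.

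It was the only one of the 7 elements to pass. Over the whole library the same test placed 300 of 3378 elements above the centre, a background of 8.88%, and 0 below it, so 1 of 7 (14.3%) is close to the share of the library and is not read as a property of these loci as a set. At an unadjusted p under 0.05, 1 of the 7 elements was above the centre and 0 were below, against 457 above (13.5%) and 26 below (0.77%) among the 3378 elements. The median log2 ratio of the 7 elements was 0.39, and that of all elements was -0.03.

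Among all elements the CDKAL1 element ranked 170 of 3378 by log2 ratio. The 300 elements called above the centre had a median log2 ratio of 2.44, so it stood near the middle of the called elements. The share of called elements rises with the number of barcodes, and 22% of the 423 elements with 20 or more barcodes were called. Among those 423 it ranked 24. By single library its rank among 3378 elements was 284, 142 and 178. RNA library 1 gave its lowest value, and that value was still above 91.6% of all elements in that library.

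In each library the CDKAL1 element was well apart from the other 6. Its ratio was 2.01 times that of the next highest element in RNA library 1, 3.50 times in library 2 and 2.77 times in library 3. The next highest was the CDC123 element at the lower coordinate in library 1, the ARAP1 element in library 2 and the CDC123 element at the higher coordinate in library 3. The lowest CDKAL1 value, 4.47, was above the highest value of any other element in any library, 2.22. The CDKAL1 element held 51.5, 70.7 and 69.0% of the RNA counts of the 7 elements, against 26.3% of their plasmid DNA counts.

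The signal of the CDKAL1 element was carried by most of its counted plasmids. Of its 20 counted barcodes, 18 had a summed RNA/DNA ratio above the centre (90.0%). The element was paired with 25 barcodes, and a barcode was counted only if it had RNA, so this share leaves out plasmids without RNA. Of all counted barcodes, 44.2% were above the centre, and over the barcodes of the 300 called elements 82.1% were. The median CDKAL1 barcode was at 6.81 times the centre, with a range from 0.310 to 22.7 times, while the median over all barcodes was 0.755. Barcodes of 1 element share their sequence and their library, so they are not replicates of the experiment.

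Barcode 1 of the CDKAL1 element, ttgtattgtgttgagg, had the most RNA, with 89, 119 and 67 counts in the 3 libraries over 162 plasmid DNA counts. It held 20.9% of the RNA of the element but 24.1% of its plasmid DNA, so its output per plasmid was below that of the element as a whole. Leaving it out gave a ratio of 5.88 times the centre. Barcode 5, cacgttgttttggcta, had 17, 12 and 58 RNA counts over only 11 plasmid DNA counts, the highest ratio per plasmid of the 20. Leaving it out gave the lowest value of any single omission, 5.35 times the centre, and leaving out barcode 4 gave the highest, 6.16 times. No single plasmid therefore moved the ratio far from the 5.63 times of the summed counts.

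RNA counts per barcode in this data set fall into a low range of up to 4 and a high range above it. In the CDKAL1 element 8 of 20 barcodes (40.0%, exact 95% interval 19.1 to 63.9%) were in the high range in 3 of 3 libraries. Over all barcodes this share was 6.43%, and over the barcodes of called elements 29.4%. Another 5 CDKAL1 barcodes were in the high range in 2 libraries and 4 in 1 library. Barcode 13, tcttatagtaagcccg, had 44 RNA counts in library 1 and 1 count in each of the others. Barcode 12, gtttaagctgatacaa, had 47 counts in library 3 against 1 and 4 in libraries 1 and 2. The counts of single plasmids thus differed widely between libraries even where the sum over the element did not.

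The CDC123 window held a pair of elements on chromosome 10, from 12237747 to 12237944 and from 12238106 to 12238303, separated by 161 bp. Neither passed the test. The element at the lower coordinate had ratios of 2.22, 0.938 and 1.50 times the centre, a mean of 1.55 ± 0.645 (SD, n = 3), from 134, 54 and 93 RNA counts over 516 plasmid DNA counts on 18 barcodes. Library 1 was above the centre by more than a factor of 2, and library 2 was just below it. Its log2 ratio was 0.64 ± 0.59 (SE; adjusted p = 0.825, edgeR), and the 95% interval of the fold, 0.687 to 3.52, takes in both the centre and values more than 3 times above it. With library totals the log2 ratio was -0.10. That setting lowered the median of all elements, and relative to that median the value was 0.66, against 0.67 with TMM.

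Its plasmid with the most RNA, aacccgagttgtgttt, gave 32, 15 and 24 RNA counts over 74 plasmid DNA counts. It was the 1 barcode of 18 in the high range in 3 of 3 libraries. Another 8 barcodes were in the high range in 1 library each. Among these, catcgacttacgcgac had 22 RNA counts in library 1 and 0 in both others, and aagaactagagatagc had 16 in library 3 and 0 in both others. The value of the element in a library therefore came in large part from different plasmids in different libraries.

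The element at the higher coordinate had ratios of 2.08, 0.723 and 2.22 times the centre, a mean of 1.67 ± 0.827 (SD, n = 3), from 39, 13 and 43 RNA counts over 161 plasmid DNA counts. It had only 4 barcodes, the fewest of the 7 elements, and its log2 ratio of 0.74 ± 1.19 (SE; adjusted p = 0.953, edgeR) leaves a fold from 0.322 to 8.71 within the 95% interval. Barcode 1, ccctcagggaaaacgg, was even across the libraries at 10, 11 and 12 RNA counts over 71 plasmid DNA counts. Barcode 2, tcgtctgcttctacag, gave 31 of the 43 RNA counts of library 3, and barcode 3, gctattgtagccttgg, gave 26 of the 39 of library 1. Without barcode 2 the ratio of the summed counts was 1.23 times the centre, and without barcode 4 it was 2.40, against 1.69 with all 4.

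The neighbours at CDC123 were not told apart. The log2 ratio of the lower minus the higher coordinate was 0.09, 0.34 and -0.57 in the 3 libraries, a mean of -0.05 ± 0.47 (SD, n = 3). The exact two-sided sign-flip permutation test over libraries gave p = 1, and 1 after adjustment over the 2 pairs of elements that share a window. With 3 libraries this test cannot go below 0.25. Both elements had their lowest ratio in RNA library 2.

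The ARAP1 element lay on chromosome 11 from 72433261 to 72433458. Its ratios were 0.806, 1.79 and 1.32 times the centre, a mean of 1.31 ± 0.493 (SD, n = 3), from 32, 68 and 54 RNA counts over 340 plasmid DNA counts on 13 barcodes. Libraries 2 and 3 were above the centre and library 1 was below it. Its log2 ratio was 0.39 ± 0.83 (SE; adjusted p = 0.965, edgeR), with a 95% interval of the fold from 0.417 to 4.09. Its log2 ratio was -0.35 with library totals and -0.34 with RNA counts of 1 to 4 set to 0. Both settings lowered the median of all elements. Relative to that median the ARAP1 element was at 0.42 with TMM, 0.42 with library totals and 0.51 with low counts set to 0. It ranked 1258 among all elements, above 62.8% of them.

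In the ARAP1 element different plasmids gave the most RNA in different libraries, although 3 of its 13 barcodes had RNA in 3 of 3 libraries. Barcodes 1 and 2, acgtatttgacggcac and aagtaaggctagtgca, had 0 RNA counts in library 1, against 15 and 13 in library 2 and 12 and 10 in library 3. In library 1 the RNA came mostly from cgacagatgcacagta, with 15 counts, and atccattttgggtacc, with 11, which together gave 26 of 32. Those barcodes had 1 and 0 counts in library 2 and 3 and 0 in library 3. Libraries 2 and 3 also differed from each other: barcode 3, atggaactaaatggta, had 1 count in library 2 and 19 in library 3, and barcode 6, taaaactagtttttac, had 14 and 0. No ARAP1 barcode was in the high range in 3 of 3 libraries, and 7 of 13 (53.8%) were in it at least once.

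The PROX1 element, on chromosome 1 from 214161232 to 214161429, had ratios of 2.17, 0.465 and 0.433 times the centre. The mean was 1.02 ± 0.993 (SD, n = 3), from 78, 16 and 16 RNA counts over 308 plasmid DNA counts on 14 barcodes. Library 1 stood far above the others, which were both below the centre. The SD of its log2 ratio between libraries, 1.29, was larger than that of 90.6% of the 720 elements with 10 to 19 barcodes, whose median SD was 0.560. Its log2 ratio was 0.03 ± 1.00 (SE; adjusted p = 1.00, edgeR), and the fold could lie between 0.258 and 4.05 at 95%. Without RNA replicate 1 the log2 ratio was -1.18, and with library totals it was -0.71. Library totals lowered the median of all elements, and relative to that median the element was at 0.06 with either normalization.

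A single plasmid set the PROX1 value in library 1. Barcode 1, aatgagcggttccagt, gave 56 of the 78 RNA counts there and 6 and 3 counts in libraries 2 and 3. Barcode 2, aaaattattgtttagg, gave 19 more in library 1, with 0 and 3 in the other libraries. The remaining 12 barcodes had at most 4 RNA counts in any library. Without barcode 1 the ratio of the summed counts was 0.525 times the centre, against 1.03 with it.

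The C2CD4A window held elements on chromosome 15 from 62359123 to 62359320 and from 62457383 to 62457580, with 8 barcodes each. They were the lowest of the group by log2 ratio, and neither differed from the centre in the test. The element at the lower coordinate had ratios of 0.263, 0.721 and 0.383 times the centre, a mean of 0.455 ± 0.238 (SD, n = 3), from 8, 21 and 12 RNA counts over 261 plasmid DNA counts. It was the 1 element of the 7 below the centre in 3 of 3 libraries, which held for 29.4% of all elements. Its log2 ratio was -1.13 ± 1.42 (SE; adjusted p = 0.915, edgeR), with a 95% interval of the fold from 0.0638 to 3.25. It was -1.86 with library totals in place of TMM and -3.03 with RNA counts of 1 to 4 set to 0, neither of which was called. Relative to the median of all elements it was at -1.10 with TMM, -1.10 with library totals and -2.18 with low counts set to 0.

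Of its 41 RNA counts over the 3 libraries, 14 came from barcode 1, atctccctttctaacg, and all of these from library 2. The other 7 barcodes had at most 4 RNA counts in a library. Barcode 1 also held the most plasmid DNA, 89 counts or 34.1% of the element, and leaving it out kept the ratio of the summed counts at 0.451.

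The C2CD4A element at the higher coordinate had ratios of 1.14, 0.706 and 0.143 times the centre, a mean of 0.664 ± 0.502 (SD, n = 3), from 39, 23 and 5 RNA counts over 292 plasmid DNA counts. Library 1 was slightly above the centre and library 3 had the lowest ratio of any of the 7 elements in any library. Its log2 ratio was -0.59 ± 1.19 (SE; adjusted p = 0.965, edgeR), with a 95% interval of the fold from 0.128 to 3.45. It was -1.26 without RNA replicate 1, -0.11 without RNA replicate 3, -1.32 with library totals and -1.45 with RNA counts of 1 to 4 set to 0. Relative to the median of all elements it was at -0.56 with TMM, -0.56 with library totals and -0.60 with low counts set to 0. Barcode 1, acttagctgaacagac, gave 18 of the 23 RNA counts of library 2. Barcodes 2 and 3, cttactagtgaagtca and ttacatgagattgcga, gave 18 and 14 of the 39 of library 1.

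The order of the C2CD4A elements changed between libraries. The log2 ratio of the lower minus the higher coordinate was -2.05, 0.03 and 1.35 in libraries 1, 2 and 3, a mean of -0.23 ± 1.72 (SD, n = 3). The exact two-sided sign-flip permutation test gave p = 1, and 1 after adjustment over the 2 pairs. As this test cannot go below 0.25 with 3 libraries, it could not have called a difference of any size.

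By mean ratio the 7 elements ran from CDKAL1 at 5.64 times the centre through CDC123 at the higher coordinate (1.67), CDC123 at the lower coordinate (1.55), ARAP1 (1.31) and PROX1 (1.02) to C2CD4A at the higher (0.664) and the lower coordinate (0.455). Only the step from CDKAL1 to the next element was free of overlap between the libraries, and all later neighbours in this order overlapped. The 6 elements other than CDKAL1, taken as a sum, had ratios of 1.51, 0.930 and 0.989 times the centre, a mean of 1.14 ± 0.316 (SD, n = 3). The sum over all 7 was 2.29, 2.34 and 2.35 times the centre, with an SD of 0.0352 that was far smaller than the SD of the CDKAL1 element or of the other 6. In library 1 the CDKAL1 element was at its lowest while PROX1, the lower CDC123 element and the higher C2CD4A element were at their highest. The other elements did not share this: ARAP1 and the lower C2CD4A element were also at their lowest in library 1. The higher CDC123 element was at its highest in library 3. A link between these values was not tested, and barcode 1 alone gave 56 of the 78 PROX1 counts of library 1.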

How the data were processed

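Per the file headers, the authors deposited 2 tables. One gives raw counts for every barcode in the plasmid DNA and in each of 3 RNA replicates, and the other assigns 86107 barcodes to 4323 elements. The deposited counts are whole numbers without normalization, as judged from their values. The file is named as filtered, and the filter, like the read processing, is not given in the sources used. Barcode sequences come from the deposited tables. Build hg19 is named per the submitters' processing notes. Starts in element names count from 0 and are printed from 1.

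Groups came from the sample titles. Counts were summed per element, and RNA was compared with plasmid DNA over all 3378 elements by the quasi-likelihood test of edgeR 4.0.16 in R 4.3.3. TMM factors were 0.876, 0.895 and 0.870 for RNA and 1.47 for DNA, and p-values were adjusted by Benjamini-Hochberg at 0.05. Elements needed 2 barcodes and 10 plasmid DNA counts, which all of them had. The SE is the absolute log2 ratio over the square root of F, and 95% intervals use edgeR's degrees of freedom. With 1 DNA library the spread is that between RNA libraries, which share that DNA library. The edgeR fit shares information on this spread over all elements. Its SE, intervals and p-values therefore do not rest on the 3 RNA libraries of an element alone, as the SD of the ratios does. Replicates are separate electroporations of 1 plasmid pool. Differences per library used a pseudocount of 0.5 counts. Exact intervals are Clopper-Pearson for shares. The test was also run on simulated counts per element with known folds. That simulation held no single barcodes and no barcode filter, so it does not cover their effect. Other steps used numpy 2.4.6, scipy 1.17.1 and pandas 2.3.3 in Python 3.11.15.

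The windows, tests and alternatives were chosen with earlier results of these data known. The rule named called elements and the highest and lowest element of at least 5 barcodes in each window. The CDC123 element with 4 barcodes fell outside it and was added because every element is accounted for. Single barcodes were named after their values were seen. Alternatives covered normalization, DESeq2 1.42.0, limma 3.58.1 with voom, filters, barcodes and replicates.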

Additional observations from a re-analysis of the deposited data

How the results depend on the processing

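Of the 7 elements, 1, the CDKAL1 element, was above the centre in each of 11 alternative settings, with log2 ratios from 1.76 (library totals) to 2.94 (without the barcode with the most RNA of each element) and adjusted p from 2.11e-23 (limma-voom) to 0.00937 (edgeR without RNA replicate 2). None of the other 6 was called in the 65 values that these settings gave for them, where the lowest adjusted p was 0.284 (limma-voom). DESeq2 left 1572 elements without an adjusted p, the C2CD4A element at the lower coordinate among them, and the filter of 5 barcodes left out the CDC123 element with 4. The setting without a filter, 1 of the 11, repeated the main fit as every element passed it, so it is no separate check. The number of all elements above the centre was 169 with library totals (with 50 below, against 300 above and 0 below with TMM), 511 with limma-voom (136 below) and 115 with RNA counts of 1 to 4 set to 0. Without 1 RNA replicate it ranged from 193 (without replicate 2) to 289. The median log2 ratio of all elements shifted by -0.73 with library totals, -0.82 with low RNA counts set to 0, -0.29 with limma-voom and -0.15 without the top barcode. The median of the 7 elements ranged from -0.35 to 0.60. Relative to the median of all elements, the CDKAL1 element was at 2.53 with TMM and 2.52 with library totals.

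Values near the centre changed sign. With library totals the log2 ratio was -0.35 for ARAP1, -0.10 for CDC123 at the lower coordinate and -0.71 for PROX1. With RNA counts of 1 to 4 set to 0 it was -0.34, -0.0036 and -0.87 for the same 3 elements. PROX1 also turned to -0.37 with limma-voom, -0.00088 with at least 5 barcodes and -0.53 when fitted without the barcode with the most RNA. For PROX1 the same barcode held the most plasmid DNA, and summed counts without it gave -0.93, chosen after seeing the data. Without 1 RNA replicate PROX1 ranged from -1.18 (without replicate 1) to 0.40 (without replicate 3). Other values moved by over 1.5 times without a change of sign or call. The C2CD4A element at the lower coordinate was at -1.86 with library totals and -3.03 with low counts set to 0. The one at the higher coordinate was at -1.32 and -1.45, with -1.26 without RNA replicate 1 and -0.11 without RNA replicate 3. The CDC123 element at the higher coordinate was at 0.0015 with library totals and 1.36 without the barcode with the most RNA. Library totals, low counts set to 0 and limma-voom also shifted the median of all elements, as given above. Relative to that median, library totals gave 0.42 for ARAP1, 0.66 for CDC123 at the lower coordinate and 0.06 for PROX1. The values with TMM were 0.42, 0.67 and 0.06, and with low counts set to 0 they were 0.51, 0.85 and -0.017. For the remaining changes the cause was not tested. No paired analysis was possible because the plasmid DNA has only 1 library, so the groups share fewer than 2 replicate numbers.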

Other observations

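More of the CDKAL1 plasmids reached the count table than is usual. Of its 25 barcodes in the pairing table, 20 (80.0%, exact 95% interval 59.3 to 93.2%) were counted, against 36.1 to 57.1% for the other 6 elements and 40.8% of all paired barcodes. Among the 1809 counted elements with at least 15 paired barcodes the median share was 40.0%, and 99.8% of them had a lower share than the CDKAL1 element. The 189 called elements among these had a median of 58.8%. A barcode is counted only with an RNA count, so this share depends in part on activity and does not stand apart from the ratio.

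Agreement between the RNA libraries can also be given barcode by barcode. Across the 20 CDKAL1 barcodes, log2 RNA counts correlated between libraries with r of 0.51, 0.41 and 0.41, a mean of 0.44. The mean was 0.25 over the 14 PROX1 barcodes, 0.099 over the 18 of CDC123 at the lower coordinate and -0.14 over the 13 of ARAP1. The median of such means over the 1143 elements with at least 10 barcodes was 0.095, and over the 183 called ones 0.35. Barcodes of 1 element share plasmid dose across libraries, and these are descriptions without a test.

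In 2 further places of the windows, elements had barcodes in the pairing table but no row in the counts used here. One was on chromosome 7 from 28220147 to 28220344 in the JAZF1 window, with 1 barcode. The other was on chromosome 15 from 62359995 to 62360192, with 3 barcodes, 674 bp beyond the C2CD4A element at the lower coordinate. Apart from the CDC123 pair, no counted element lay near another: the nearest counted neighbour was 98062 bp away for the C2CD4A elements, 287594 bp for ARAP1, 972313 bp for PROX1 and 1059067 bp for CDKAL1.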
